A study of Homo sapiens with 10 samples.

Results

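The genes described here encode RNA polymerase II, RNA polymerase III and the factors that place RNA polymerase III on its genes. They were taken from the RefSeq gene table as the protein-coding genes whose symbol begins with POLR2, POLR3 or GTF3C, together with BRF1, BRF2, BDP1, TBP and MAF1. Reported here are 35 of 20033 protein-coding genes: 15 POLR2 genes, 9 POLR3 genes, 6 genes of TFIIIC (GTF3C1 to GTF3C6), 4 genes of TFIIIB (BRF1, BRF2, BDP1 and TBP) and MAF1. POLR2M was included by its symbol, although it encodes a protein that joins polymerase II rather than a core subunit.

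RNA polymerase II transcribes protein-coding genes, and RNA polymerase III transcribes tRNA genes, 5S rRNA and other short RNAs. Some small subunits are built into polymerases I, II and III alike, and the remaining subunits belong to 1 or 2 of the enzymes. TFIIIC recognises the internal promoters of tRNA genes and brings in TFIIIB, which in turn recruits polymerase III, and MAF1 is a repressor of polymerase III. MYC is a transcription factor that binds DNA as a dimer with MAX, prefers the E-box CACGTG, and is known for raising the output of all nuclear polymerases in growing cells.

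The measurements came from U2OS cells, a human osteosarcoma line, in which the endogenous MYC gene was knocked out and a FLAG-tagged MYC could be switched on with doxycycline. The mutants 3A and 7A and wild-type (WT) MYC were each induced with 1 µg/mL doxycycline for 24 h, and chromatin was immunoprecipitated with an antibody to FLAG in 2 libraries per protein. All cells shared the MYC knockout and were mixed with 10% mouse NIH3T3 fibroblasts as a reference genome. The labels do not say which residues are changed in 3A and 7A, whether a line is 1 clone, or how much of each protein was made. The 4 other libraries, uninduced WT immunoprecipitates and WT inputs, had no peak list used here.

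Each induced protein had 1 deposited peak list, with 845 peaks for 3A, 64 for 7A and 4749 for WT. There was therefore no spread between replicates, no test between proteins, and no check of these peaks against uninduced cells. A gene was called bound when a peak summit lay within 1 kb of either end of its span. Fold enrichment is the authors' value for a peak, the pileup of immunoprecipitated fragments at the summit over the local background of the same list. It was read here as a ratio with 1 added to both the pileup and the background. Folds were ranked within a list, and their levels were not compared between lists. The interval after a fold is an exact Poisson 95% interval on the pileup with the background held fixed, so it covers counting error only.

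3A bound 5 of the 35 genes (14.3%), 7A bound 0 and WT bound 13 (37.1%). Over all protein-coding genes the shares were 3.5% for 3A, 0.125% for 7A and 16.7% for WT. The share of these genes bound was thus above that of all genes in the 3A and WT lists. The 5 genes bound by 3A were POLR2D, POLR2I, POLR3D, POLR3G and GTF3C6, and all 5 were also bound by WT. WT alone bound POLR2B, POLR2H, POLR2M, POLR3A, POLR3E, POLR3K, GTF3C2 and GTF3C4. With 25 of 20033 genes bound by 7A, its count of 0 among 35 is close to its share over all genes.

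**Figure D1:**
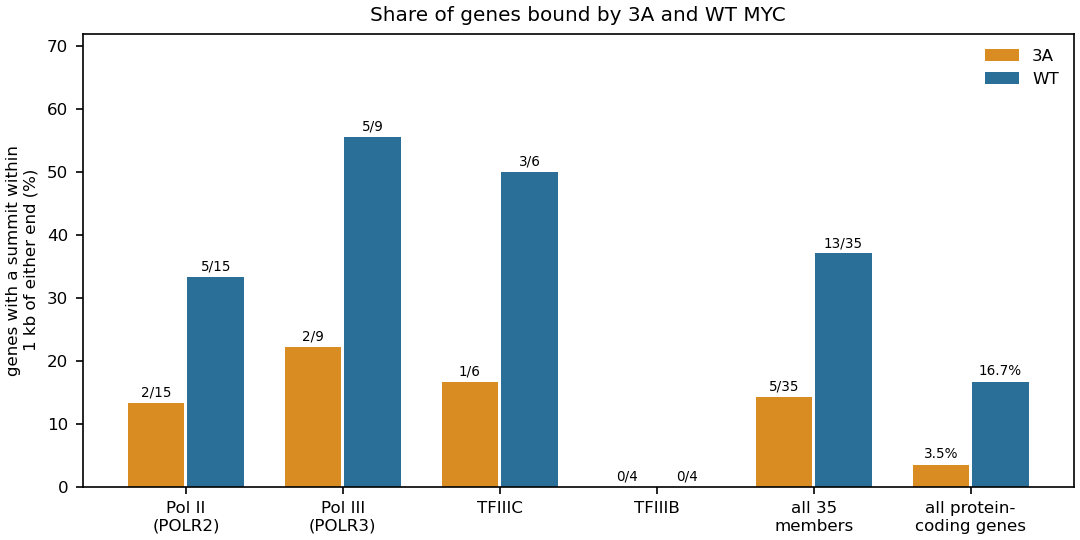
The bars give the percentage of genes with a summit within 1 kb of either end for 3A (left bar) and WT (right bar), with the counts above them or, for all protein-coding genes, the percentage. WT bound 5 of 15 POLR2 genes, 5 of 9 POLR3 genes, 3 of 6 TFIIIC genes and 0 of 4 TFIIIB genes, and each bar of 3A is lower than that of WT where WT bound any.

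A smaller share of POLR2 than of POLR3 genes was bound in the 3A and WT lists. 3A bound 2 of 15 POLR2 genes (13.3%) against 2 of 9 POLR3 genes (22.2%). WT bound 5 of 15 (33.3%) against 5 of 9 (55.6%). Both classes exceeded all genes in the WT list. The order in the 3A list rested on the window, on counting either gene end and on which POLR2 genes were counted. Of the 9 genes for subunits of polymerase II alone, 3A bound 2 (22.2%), the same share as of POLR3 genes. WT bound 3 of these 9 (33.3%). Within 500 bp 3A bound 2 POLR2 and 1 POLR3 genes. By listed starts alone, which exist for 10 POLR2 and 7 POLR3 genes, 3A bound 1 POLR2 and 0 POLR3 genes. WT then bound 4 POLR2 genes (40.0%) and 3 POLR3 genes (42.9%), so the WT shares were nearly equal on that count. With so few genes in each class, and classes chosen with earlier results known, the difference between them was not tested.

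**Figure D2:**
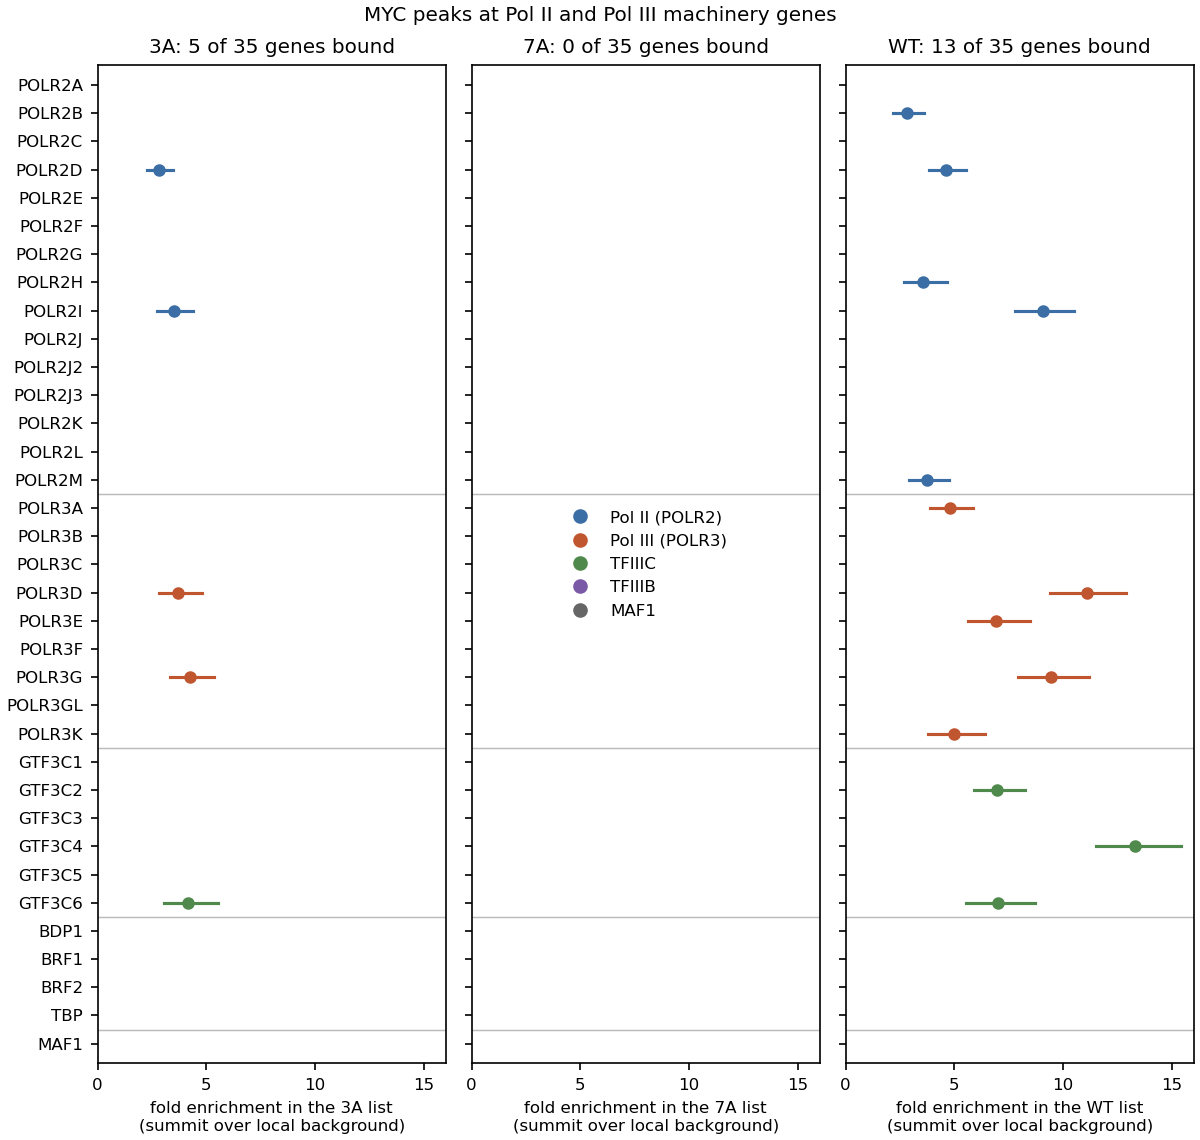
Each row is 1 of the 35 genes and each panel 1 peak list, with fold enrichment at the summit on the horizontal axis. Points are bound genes, lines are Poisson 95% intervals and an empty row means no summit within 1 kb. The WT folds run up to 13.3 at GTF3C4, the 3A folds lie between 2.81 and 4.24, and the 7A panel is empty.

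The largest subunits of polymerase II were weakly bound or not bound. POLR2A, which carries the catalytic centre and the repeated tail, had its nearest 3A summit 868475 bp and its nearest WT summit 47107 bp away. POLR2B, the second-largest subunit, had its nearest 3A summit 542459 bp away and a WT summit 7 bp from its start (chromosome 4, 56978691 to 56979226). Its WT fold of 2.83 (2.18 to 3.61) ranked 4630 of 4749, the lowest of all bound genes of the group, and with a −log10 q of 9.53 it was the single WT-bound gene of the group lost at a threshold of 10.

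The other subunits specific to polymerase II gave both genes that 3A bound in this class. POLR2I, a small zinc-binding subunit linked to transcriptional fidelity, had a 3A fold of 3.49 (2.73 to 4.39) and a WT fold of 9.09 (7.80 to 10.5), with summits 130 bp and 98 bp from the gene end. The WT peak (chromosome 19, 36114503 to 36115776) held 175 fragments at its summit over a background of 18.4. POLR2D, a subunit of the stalk of polymerase II, had a 3A fold of 2.81 (2.25 to 3.47) and a WT fold of 4.63 (3.85 to 5.53). Its WT peak lay at chromosome 2, 127857798 to 127858405, over the highest WT background of the 13 bound genes, 25.1. POLR2I thus stood in the upper 9.98% of the WT list by fold and 5.01% by −log10 q. POLR2D stood at 61.8% by fold but at 28.2% by −log10 q, so its place in the list depended on the measure.

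POLR2G, the partner of POLR2D in the stalk, was bound in neither list, with the nearest 3A summit 74842 bp and the nearest WT summit 34193 bp away. POLR2C, part of the platform on which the enzyme assembles, had its nearest WT summit 15256 bp away. POLR2J, its partner in that platform, and the copies POLR2J2 and POLR2J3 had none within 403591 bp. The copies are nearly identical, so reads from them may have been lost or split in the authors' mapping, and the absence of a peak there is uncertain. Without POLR2J2 and POLR2J3, 3A bound 2 and WT bound 5 of 13 POLR2 genes.

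Among the 5 subunits that polymerases I, II and III share, 3A bound 0 and WT bound 1, close to the 3.5% and 16.7% of all genes. POLR2H had a WT fold of 3.57 (2.70 to 4.64) with its summit 133 bp inside the span (chromosome 3, 184360962 to 184362489). A further WT peak with a fold of 4.45 lay 1733 bp from the end of POLR2H, 82 bp downstream of a start that RefSeq lists inside the gene. POLR2L was the gene nearest to the limit on its outer side, with a WT summit at 1603 bp and a fold of 5.77. POLR2F, POLR2E and POLR2K had their nearest WT summits 47449, 102242 and 156192 bp away. POLR2M, whose product Gdown1 competes with the initiation factor TFIIF on polymerase II, had a WT summit 23 bp from its start with a fold of 3.76 (2.93 to 4.74) and no 3A summit within 614832 bp.

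By WT fold the highest peaks among the polymerase subunits were at POLR3D and POLR3G, just above POLR2I. By pileup POLR2I came first, with 175 fragments against 153 at POLR3D and 135 at POLR3G, and its −log10 q of 101 equalled that of POLR3D. POLR3D and POLR3E encode a pair of subunits that resembles TFIIF of the polymerase II system and acts in initiation and termination. POLR3D had a 3A fold of 3.70 (2.81 to 4.78) and a WT fold of 11.1 (9.39 to 12.9), with summits 104 bp and 149 bp inside the gene. Its WT peak (chromosome 8, 22244675 to 22245675) ranked 231 of 4749. POLR3E had no 3A summit within 776821 bp and a WT fold of 6.93 (5.61 to 8.47), its summit 16 bp upstream of the start (chromosome 16, 22297047 to 22297968). Both members of the pair were WT-bound, and POLR3D alone was bound by 3A.

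POLR3K, the counterpart of POLR2I and part of the RNA cleavage activity of polymerase III, had no 3A peak and a WT fold of 4.99 (3.8 to 6.43) at chromosome 16, 52863 to 54126.

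POLR3C, POLR3F and either POLR3G or POLR3GL form a subcomplex of polymerase III that resembles the initiation factor TFIIE. POLR3G had a 3A fold of 4.24 (3.31 to 5.36) and a WT fold of 9.45 (7.94 to 11.2), ranking 146 of 845 and 411 of 4749, and its 3A fold was the highest of the 5 genes. It was the gene just inside the limit, with summits 889 bp (3A) and 891 bp (WT) from its end, and these summits lay 47 bp and 49 bp from the end of the overlapping neighbour MBLAC2. With each summit given to the nearest gene end it was no longer counted as bound. Its alternative form POLR3GL had no WT summit within 59247 bp, POLR3F none within 103626 bp and POLR3C none within 193693 bp. Of the subcomplex, POLR3G alone was bound, in both lists.

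POLR3A, the largest subunit of polymerase III, had a WT fold of 4.79 (3.88 to 5.85) with its summit 24 bp upstream of the start (chromosome 10, 78029297 to 78030123). A stronger WT peak with a fold of 10.6 lay 4448 bp from POLR3A, 100 bp from the end of RPS24, a ribosomal protein gene. The nearest 3A summit, 4424 bp from POLR3A with a fold of 4.60, was at that RPS24 site and not at POLR3A. POLR3B, the second-largest subunit, was bound in neither list, with the nearest WT summit 444762 bp away.

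**Figure D3:**
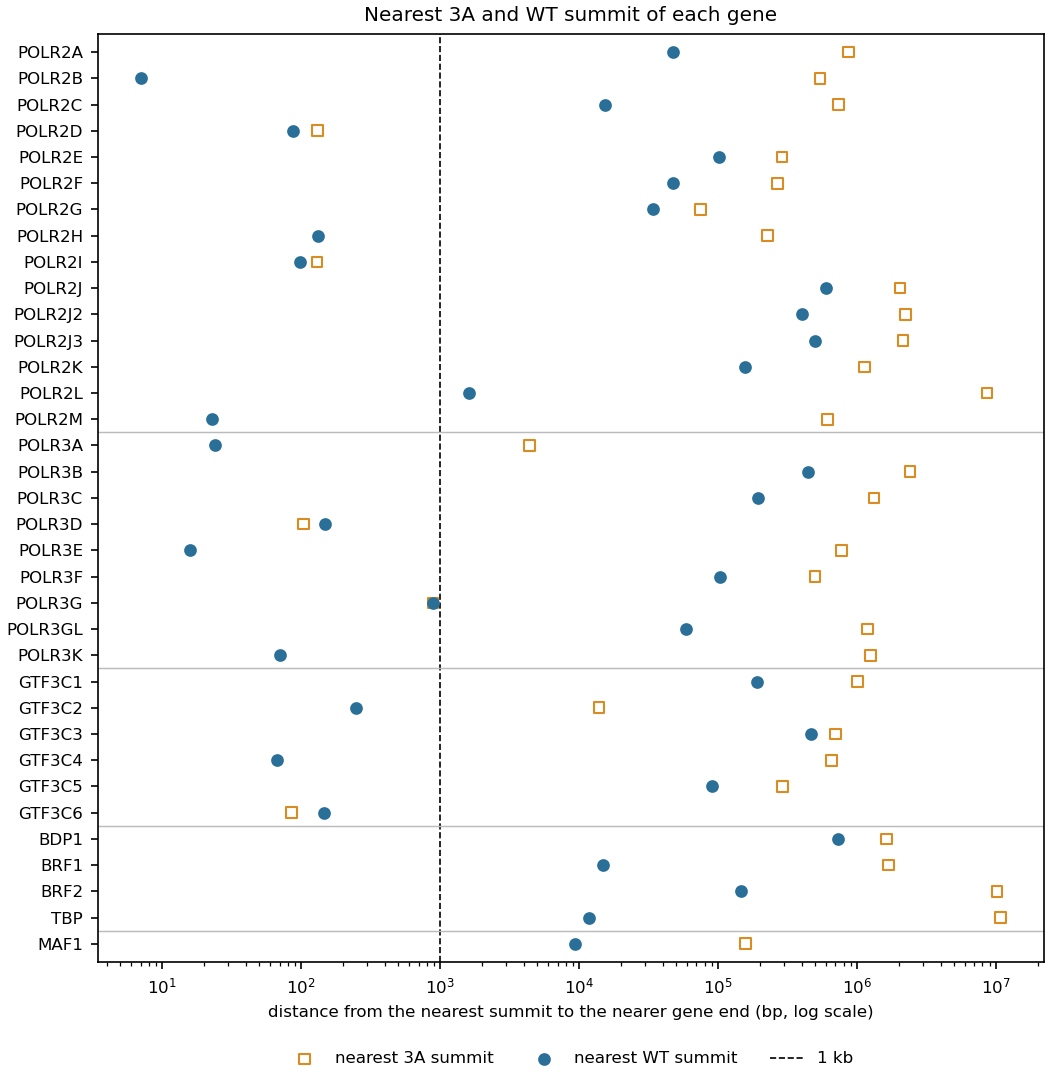
Each row is 1 gene, and the log-scaled horizontal axis gives the distance in bp from the nearer gene end to the nearest 3A summit (open squares) and the nearest WT summit (filled circles). The dashed line marks 1 kb. In the WT list POLR3G lies just inside it at 891 bp, the other bound genes are at 248 bp or less, and POLR2L lies just outside at 1603 bp.

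TFIIIC included the strongest peak of the whole group. GTF3C4, a subunit described as having histone acetyltransferase activity, had no 3A summit within 653322 bp and a WT fold of 13.3 (11.5 to 15.4), ranking 107 of 4749. Its WT peak (chromosome 9, 132669439 to 132670756) held 180 fragments over a background of 12.6, with the summit 67 bp upstream of the start. GTF3C6, the smallest subunit, was the TFIIIC gene bound in both lists, with a 3A fold of 4.15 (3.06 to 5.51) and a WT fold of 7.0 (5.54 to 8.72) at chromosome 6, 110958165 to 110958946. GTF3C2, in the part of TFIIIC that contacts the B box of tRNA genes, had a WT fold of 6.98 (5.89 to 8.23) with the summit 248 bp upstream of the start (chromosome 2, 27356283 to 27357432), and its nearest 3A summit was 13913 bp away. GTF3C1, which recognises the B box, GTF3C3 and GTF3C5 were unbound, with the nearest WT summits 191932, 470468 and 91008 bp away.

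Of the 4 TFIIIB genes, 3A, 7A and WT each bound 0, and with 16.7% of all genes bound by WT a count of 0 among so few does not set them apart. BRF1, used at tRNA and 5S genes, had its nearest WT summit 14836 bp from its ends, with a fold of 5.06. That summit lay 248 bp downstream of a start that RefSeq lists inside BRF1 and 21 bp from the end of PACS2, so the peak cannot be given to 1 of the genes. TBP, which works with all nuclear polymerases, BRF2, used at U6-type promoters, and BDP1 had their nearest WT summits 11701, 145260 and 730184 bp away. MAF1 had none within 9311 bp, and the WT peak at that distance, with a fold of 4.93, lay 74 bp from the end of CYC1.

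Some subunits that hold the same place in polymerases II and III differed in their calls, and others did not. Of the largest subunits, POLR2A was unbound and POLR3A was WT-bound. The second-largest were the reverse, with POLR2B WT-bound and POLR3B unbound. POLR2I was bound in both lists and its counterpart POLR3K in WT alone. POLR2D and its counterpart CRCP, which the symbol rule does not select, were both WT-bound, with folds of 4.63 and 4.35. These pairs were set side by side after their values had been seen.

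The genes that 3A and WT shared had a higher median fold in the WT list than those of WT alone. Of the 13 WT-bound genes 3A bound 5 (38.5%), where over all WT-bound protein-coding genes it bound 18.8%. By listed starts alone, which POLR2I, POLR3D and POLR3G lack, 3A bound 2 of 11 (18.2%), against 18.7% of all WT-bound genes with a listed start. The WT folds of the 5 genes also bound by 3A had a median of 9.09 (4.63 to 11.1), and those of the 8 genes not bound by 3A a median of 4.89 (2.83 to 13.3). Over all protein-coding genes these medians were 6.81 and 4.91. The ranges overlap, since GTF3C4 had the highest WT fold and no 3A peak, while POLR2D had a lower one and a 3A peak. Each of these 5 peaks of the 3A list lay wholly within its WT peak, and the summits were 2 bp (POLR3G) to 62 bp (GTF3C6) apart.

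The lack of a 3A peak does not show that 3A was absent. The 8 genes without one had WT backgrounds of 10.6 to 21.3 fragments at the summit. The 3A backgrounds at these genes are not known, since no 3A peak was called there. The 418 3A peaks over 3A backgrounds in the same numeric range had folds from 2.21 and at least 35 fragments. Read depth is not given, so the range may not carry over from the WT to the 3A list.

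**Figure D4:**
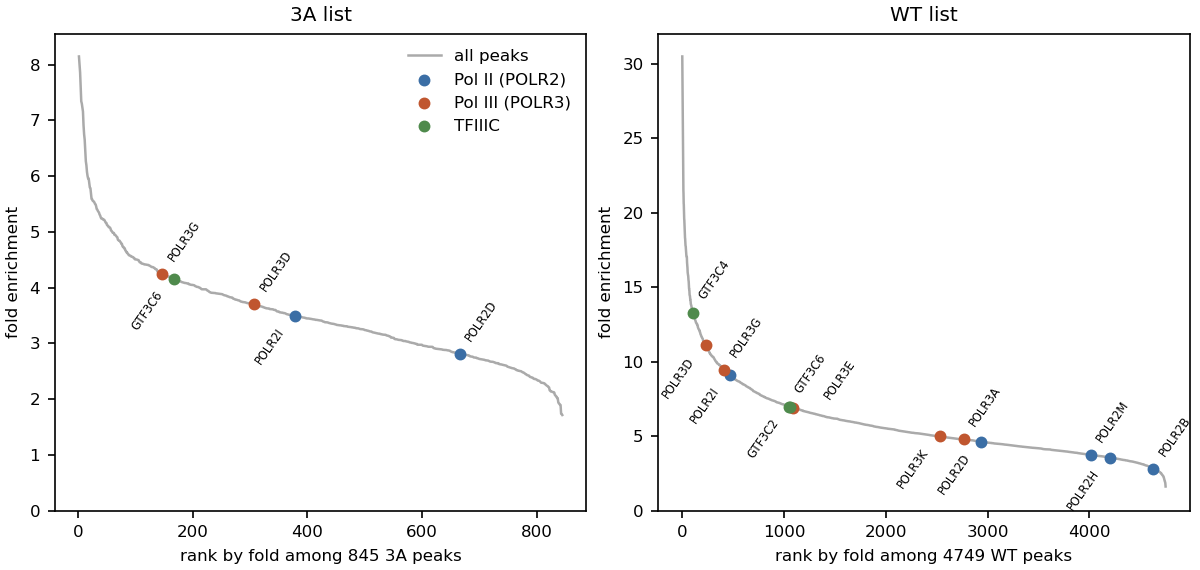
Grey lines give the fold enrichment of all 845 3A peaks (left) and all 4749 WT peaks (right) in order of rank, and coloured points mark the peaks at bound genes. POLR3G and GTF3C6 are the highest of the 3A points, and GTF3C4 is the highest of the WT points. The Pol II points other than POLR2I lie in the lower part of the WT curve, as do POLR3A and POLR3K.

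Within the WT list, POLR3 peaks had a higher median fold than POLR2 peaks. The median WT fold was 3.76 (2.83 to 9.09) at the 5 bound POLR2 genes, against 6.93 (4.79 to 11.1) at the 5 bound POLR3 genes. At the 3 bound TFIIIC genes it was 7.0 (6.98 to 13.3), and over all bound protein-coding genes 5.10. In the 3A list the medians were 3.15 at the 2 POLR2 genes and 3.97 at the 2 POLR3 genes, with 3.36 over all bound genes. The POLR2 and POLR3 ranges overlapped in the WT list through POLR2I. In the 3A list the folds were 2.81 and 3.49 at POLR2 genes and 3.70 and 4.24 at POLR3 genes, but their Poisson intervals overlapped. By 3A pileup the order was the reverse, with 84 fragments at POLR2D and 71 at POLR2I against 56 at POLR3D and 68 at POLR3G. With 2 genes in each class the 3A folds do not separate the classes.

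E-box letters were looked up in RefSeq promoter windows of GRCh38.p14, from 250 bases before to 50 after each listed start. Of the 35 genes 26 had a window. POLR2G, POLR2I, POLR2J, POLR2J3, POLR2K, POLR3D, POLR3G, BRF2 and MAF1 had none. CACGTG was present at 5 of the 10 WT-bound genes with a window and at 1 of the 16 unbound ones (6.25%). Over all protein-coding genes with a window it was present at 19.2% of WT-bound and 9.12% of unbound genes, and 8.34% of all 22198 windows of protein-coding genes held it. CACGTG reads the same on both strands, as does the looser pattern CANNTG that includes it. CANNTG was present at 9 of the 10 bound and 12 of the 16 unbound genes, against 67.3% and 71.2% over all genes, and in 65.1% of windows.

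The 5 bound genes with CACGTG were GTF3C2, GTF3C4, GTF3C6, POLR3A and POLR3E, all of the polymerase III side. No POLR2 gene with a window held it, bound or not. There were 10 such genes, and with CACGTG at 10.9% of all protein-coding genes with a window, having none does not set them apart. POLR2I, the POLR2 gene with the highest WT fold, had no window. The unbound gene with CACGTG was POLR3C, 196 bases upstream of a start. At GTF3C6 the motif began 142 bases upstream of the start, its centre 8 bp from the WT summit and 55 bp from the 3A summit. At POLR3A it began 35 bases upstream, 9 bp from the WT summit, and at POLR3E 1 base upstream, 18 bp from it. At GTF3C4 it also began 35 bases upstream, 35 bp from the WT summit, and at GTF3C2 103 bases upstream, 148 bp from it. The letters describe the sequence and do not show which protein bound there.

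The windows below are those of the 3A-bound genes with an entry, GTF3C6 and POLR2D, and of the 4 genes with the highest WT folds among those without a 3A peak. They run 5′ to 3′ from 250 bases before the start to the first 30 bases from the start on, and capitals mark every CANNTG with CACGTG among them. They show a CACGTG at 4 genes and other CANNTG letters alone at POLR2D and POLR3K. GTF3C6 is at chr6:110958456-110958735 on the plus strand, POLR2D at chr2:127858126-127858405 on the minus strand and GTF3C4 at chr9:132669785-132670064 on the plus strand. GTF3C2 is at chr2:27356735-27357014 on the minus strand, POLR3E at chr16:22297159-22297438 on the plus strand and POLR3K at chr16:53579-53858 on the minus strand.
GTF3C6: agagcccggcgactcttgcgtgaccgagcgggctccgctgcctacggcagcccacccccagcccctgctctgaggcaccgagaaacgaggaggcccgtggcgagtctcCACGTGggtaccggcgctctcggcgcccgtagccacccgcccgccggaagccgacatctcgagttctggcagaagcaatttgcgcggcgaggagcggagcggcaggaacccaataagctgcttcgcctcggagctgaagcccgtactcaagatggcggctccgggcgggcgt
POLR2D: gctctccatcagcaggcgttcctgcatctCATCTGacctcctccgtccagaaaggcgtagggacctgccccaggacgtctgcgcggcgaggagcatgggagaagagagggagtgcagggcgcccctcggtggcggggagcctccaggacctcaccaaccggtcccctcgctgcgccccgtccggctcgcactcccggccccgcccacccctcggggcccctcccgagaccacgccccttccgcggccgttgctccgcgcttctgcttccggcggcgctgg
GTF3C4: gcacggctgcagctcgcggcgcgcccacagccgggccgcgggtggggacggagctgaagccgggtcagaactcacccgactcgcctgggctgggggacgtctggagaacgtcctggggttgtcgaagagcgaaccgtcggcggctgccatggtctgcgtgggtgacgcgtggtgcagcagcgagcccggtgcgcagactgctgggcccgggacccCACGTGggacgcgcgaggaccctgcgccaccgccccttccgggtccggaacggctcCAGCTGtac
GTF3C2: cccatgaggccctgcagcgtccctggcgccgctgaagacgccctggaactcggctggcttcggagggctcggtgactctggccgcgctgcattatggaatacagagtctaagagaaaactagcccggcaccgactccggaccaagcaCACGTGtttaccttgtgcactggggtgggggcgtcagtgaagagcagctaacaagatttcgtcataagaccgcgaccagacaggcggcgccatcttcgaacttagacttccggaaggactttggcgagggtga
POLR3E: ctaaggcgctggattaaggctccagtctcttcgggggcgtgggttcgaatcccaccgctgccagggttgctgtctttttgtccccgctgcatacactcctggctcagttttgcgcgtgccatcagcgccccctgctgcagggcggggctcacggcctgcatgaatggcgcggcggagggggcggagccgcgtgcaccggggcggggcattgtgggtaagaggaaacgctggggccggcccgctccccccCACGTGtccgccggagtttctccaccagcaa
POLR3K: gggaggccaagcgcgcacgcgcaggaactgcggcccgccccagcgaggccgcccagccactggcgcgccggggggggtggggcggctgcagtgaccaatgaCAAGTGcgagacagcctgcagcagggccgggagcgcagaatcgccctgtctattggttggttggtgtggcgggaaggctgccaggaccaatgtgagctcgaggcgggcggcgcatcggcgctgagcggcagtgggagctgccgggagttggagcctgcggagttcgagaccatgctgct

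At POLR2D the WT summit lay 87 bp and the 3A summit 131 bp downstream of the start, beyond the printed bases, and the CATCTG was 306 bp from the WT summit. At POLR3K the WT summit lay 71 bp downstream of the start, 218 bp from the CAAGTG. GTF3C4 carried a further CAGCTG 21 bases after its start, 91 bp from the WT summit.

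**Figure D5:**
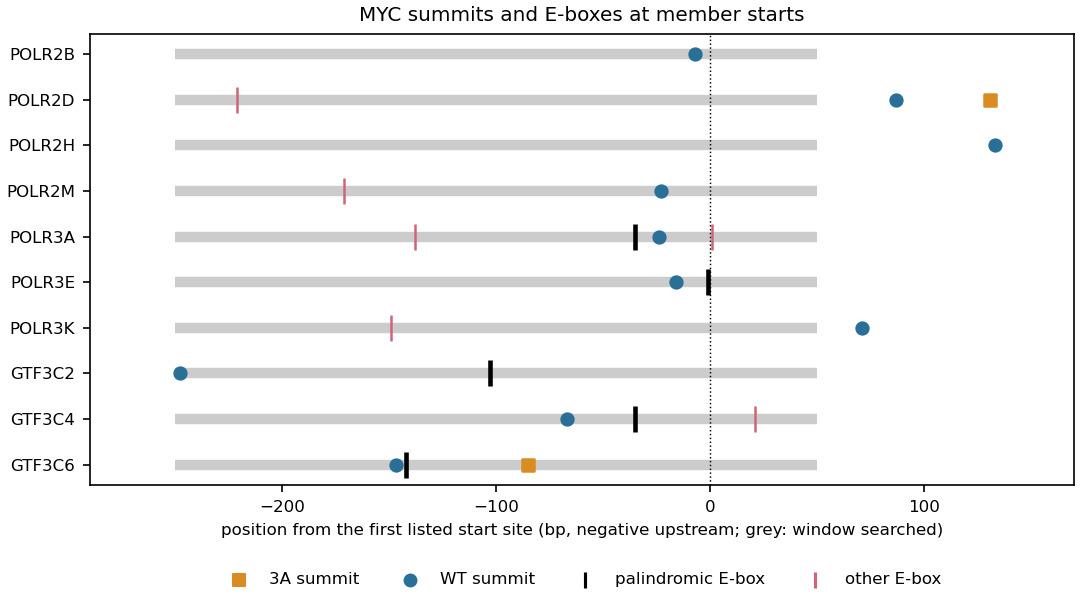
Each row is a WT-bound gene with a RefSeq window, drawn from its first listed start at 0, with upstream positions negative and the searched window in grey. Circles are WT summits, squares 3A summits, black ticks the first base of CACGTG and red ticks other CANNTG. WT summits lie between 248 bp upstream (GTF3C2) and 133 bp downstream (POLR2H), and the black ticks fall at POLR3A, POLR3E, GTF3C2, GTF3C4 and GTF3C6.

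Several of these peaks lay where another gene also begins or ends, so they cannot be given to 1 gene. The POLR2I peak was 98 bp from POLR2I and 6 bp from TBCB, a tubulin folding cofactor, in the WT list. The GTF3C4 summit was 67 bp from GTF3C4 and 15 bp from DDX31, a helicase gene. CLCN2, a chloride channel gene, was 238 bp from the POLR2H summit, and SNRNP25, a gene of the minor spliceosome, 291 bp from that of POLR3K. Short RNA genes also lay close by: the tRNA-leucine gene TRL-AAG2-4 was 172 bp from the POLR3E summit, and the microRNA gene MIR320A 245 bp from the WT summit of POLR3D. An end of the antisense RNA gene GTF3C2-AS2 lay 247 bp from the GTF3C2 summit. With each summit given only to its nearest protein-coding gene, POLR2I, POLR3G and GTF3C4 were no longer counted, and 3A bound 3 and WT bound 10 of the 35 genes.

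Other genes of the same pathways were looked up by the same rule. Of 17 genes of the general factors of polymerase II, 3A bound 2 and WT bound 4, the strongest being the TFIIH subunits GTF2H1 (3A fold 2.86, WT fold 7.44) and GTF2H3 (3A fold 3.61, WT fold 6.75). The TFIIE subunit GTF2E1 and the TFIIA subunit GTF2A1 were bound by WT alone, with folds of 4.74 and 4.73. Of 14 TBP-associated factors, 3A and WT each bound 0. Of 10 elongation and pausing factors 3A bound 0 and WT bound 2, the NELF subunits NELFCD (5.29) and NELFB (4.82). Of 6 polymerase assembly factors WT bound GPN3 alone, with a fold of 11.9. These WT shares, from 0 to 23.5%, lie on both sides of the 16.7% of all genes. The 3A shares, from 0 to 11.8%, lie on both sides of the 3.5% of all genes. With lists this small, differences between them were not tested.

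Among 12 further genes of the polymerase III system 3A bound 1 and WT bound 6. GTF3A, the 5S-specific factor TFIIIA, had a WT fold of 13.8 and ranked 88 of 4749, and POU2F1, an octamer-binding factor, had 8.13. POLR1C, a subunit of polymerases I and III, had a WT fold of 5.91, and SSB, the La protein that binds the ends of new polymerase III transcripts, 4.89. CRCP, the polymerase III counterpart of POLR2D, had 4.35, and the snRNA-activating subunit SNAPC5 had 4.80. ZNF143, an activator of snRNA and tRNA-selenocysteine genes, was the gene bound by 3A, with a fold of 2.38 and a −log10 q of 5.97. It was not bound by WT. None of the 5 lists had a gene bound by 7A, which bound 0.125% of all genes.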

How the data were processed

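Chromatin was fixed with 1% formaldehyde for 10 min, sheared to 200 to 500 bp and immunoprecipitated with anti-FLAG, and 5 ng went into each library, amplified for 9 cycles, per the labels' protocols. Of 10 libraries in 6 groups, the 3 induced immunoprecipitates had 1 deposited peak list each. Per the submitters' processing notes the tools were MACS2, Picard, SAMtools, Bowtie2 and cutadapt; hg38, hg19 and mm10 are listed there as builds with no role. How the 2 libraries, the input and the mouse reads entered each list is not given in the sources used here, nor is the read depth.

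The fold enrichment at each summit, a ratio over local background, was made by the authors with MACS2, per the submitters' processing notes. The −log10 p and −log10 q of each peak are likewise the authors' deposited MACS2 values. The deposited score equals 10 times the −log10 q, cut to a whole number, in 845 of 845 3A, 64 of 64 7A and 4747 of 4749 WT peaks. Folds ran from 1.72 to 8.15 for 3A, 1.41 to 4.99 for 7A and 1.63 to 30.5 for WT.

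Summits were joined to RefSeq GRCh38.p14 gene spans. Of the WT summits 60.1% lay within 1 kb of a gene end, against 5.96% and 5.22% after shifting them by 100 kb either way, which fixed the build as hg38. The pileup was recovered from the fold and −log10 p as a whole number of fragments, and the background, not a whole number, followed from the pileup and the fold. The match was within 0.02 of a step in 845 of 845 3A, 63 of 64 7A and 4749 of 4749 WT peaks. The steps were tested on simulated data. A gene that the symbol rule selects is not reported here, and the counts of the set were made without it. Every gene of the set is accounted for, and every bound one is named with its values. In each further gene list up to 4 bound genes with the highest WT fold were named by rule, and CRCP, SNAPC5 and ZNF143 were added after their values were seen. The genes and lists were chosen with earlier results of these data known. Alternatives changed the window, the −log10 q threshold, the gene end counted and the overlap. Joins used pandas 2.3.3 in Python 3.11.15, intervals scipy 1.17.1 with numpy 2.4.6, and plots matplotlib 3.10.9. No expression data were at hand to check the cell line or the MYC knockout.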

Additional observations from a re-analysis of the deposited data

How the results depend on the processing

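Of 73 values recomputed under the alternatives, 62 stayed within 1.5 times the reported one and 11 moved further. The 62 include the 7A counts of 0 and the counts at a −log10 q of at least 5, all equal to the reported ones. The tally is therefore no measure of stability. The order of POLR2 and POLR3 shares in the 3A list turned round at 500 bp (13.3% and 11.1%) and by gene starts (1 of 10 and 0 of 7). In the WT list the POLR3 share stayed the larger, but by gene starts the shares were nearly equal (40.0% and 42.9%). Gene starts alone are listed for 26 of the 35 genes, POLR2I, POLR3D and POLR3G not among them. Counted that way, 3A bound 2 genes of the set, 1 POLR2 gene and 0 POLR3 genes, WT bound 3 POLR3 genes, and 3A shared 2 genes with WT. On that count WT bound 11 genes, among them BRF1. With each summit given to the nearest gene end only, 3A bound 3 genes, 1 POLR2 gene and 1 POLR3 gene among them, and shared 3 with WT, since the POLR2I and POLR3G summits lay nearer to TBCB and MBLAC2. A 500 bp window left 4 genes for 3A, with 1 POLR3 gene, and 12 for WT, and a 5 kb window gave 6 and 14. The 3A gene added at 5 kb was POLR3A, through the summit 4424 bp away at RPS24. The WT gene added was POLR2L, with its summit at 1603 bp. The shares of the set bound by 3A and WT were 11.4% and 34.3% at 500 bp (all genes 3.13% and 13.8%), 17.1% and 40.0% at 5 kb (4.29% and 21.1%), 8.57% and 28.6% by nearest end (2.89% and 14.1%), and 7.69% and 42.3% by starts (3.87% and 18.8%). Where overlap had to cover 50% of both peaks, 3 WT peaks at these genes were shared with 3A in place of 5. 7A bound 0 genes under every alternative tried. No paired analysis was possible because each protein has 1 peak list, and for the same reason no replicate could be left out. The number of peaks called limits the 3A and 7A counts, and intervals on folds cover counting error only.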
